A study of Mus musculus with 102 samples.

Results

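The cytosolic heat shock proteins and their co-chaperones were followed in microglia, the resident macrophages of the spinal cord, of WT mice and of mice in which the cholesterol transporters Abca1 and Abcg1 can be deleted. The group holds 10 genes of the 18856 in the authors' normalized table, chosen by symbol: Hspa1a, Hspa1b, Hspa8, Hsp90aa1, Hsp90ab1, Hspb1, Hsph1, Dnajb1, Dnaja1 and Bag3. All 10 matched the raw count table by gene ID, and all 10 passed the filter on low counts. ABC-imKO mice carry Abca1fl/fl and Abcg1fl/fl, alleles that a recombinase can delete, with Cx3cr1-CreERT2, a tamoxifen-inducible Cre expressed under the Cx3cr1 promoter, which is active in microglia and in other macrophages. WT mice are labelled as wild type, with no further allele given. Of each genotype, 1 group received intraperitoneal cisplatin, a platinum drug that damages peripheral nerves, on days 1 and 3 and intrathecal AIBP, the apolipoprotein A-I binding protein, which promotes cholesterol efflux, on day 7. A second group received the same cisplatin and intrathecal saline on day 7, and the remaining group was naive. Naive mice had no injection, so a comparison of a cisplatin group with a naive group also holds the intrathecal injection. The groups hold 3 numbered samples each (ABC-imKO cisplatin AIBP 7 to 9, cisplatin saline 4 to 6, naive 1 to 3, and the same for WT) except WT cisplatin AIBP, which has samples 7 and 9. The labels give neither age nor sex. How many mice went into a numbered sample is not stated in them, and the p-values rest on the variation among those samples, part of which may be technical.

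Heat shock proteins bind unfolded proteins and help them fold, or pass them on for degradation. Their genes are switched on by heat shock factor 1, which binds heat shock elements, inverted repeats of GAA, in their promoters when unfolded protein accumulates. In microglia, transcripts of heat shock genes and of immediate early genes are also known to change while cells are dissociated and sorted. Hspa1a and Hspa1b are the stress-inducible HSP70 chaperones and Hspa8 is the constitutive one. Dnajb1 and Dnaja1 are J-domain proteins that deliver unfolded clients to HSP70, Hsph1 exchanges its nucleotide, and Bag3 links HSP70 and small heat shock proteins to autophagy. Hsp90aa1 and Hsp90ab1 are the inducible and the constitutive HSP90 chaperones of the cytosol. Hspb1 is a small heat shock protein that holds unfolded proteins in solution.

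Samples held 45.1 to 76.6 M counts (M for mega), with 69.4 to 76.6 M in the ABC-imKO cisplatin groups and 45.1 to 64.2 M in the WT groups, and each was the sum of 3 technical libraries. Mitochondrial genes took 1.53 to 3.04% of the counts. Abca1 was at 32.6 to 65.7 CPM (TMM-scaled counts, relative to the library size in M) in ABC-imKO cisplatin AIBP samples, 56.6 to 98.5 CPM in ABC-imKO cisplatin saline samples and 66.1 to 105 CPM in ABC-imKO naive samples, against 41.1 to 45.6 CPM in WT cisplatin AIBP, 60.4 to 76.1 CPM in WT cisplatin saline and 87.3 to 114 CPM in WT naive samples. Abcg1 was at 41.6 to 66.4 CPM in ABC-imKO naive and 91.7 to 160.2 CPM in WT naive samples, and its genotypes overlapped in both cisplatin treatments. Counts over a whole gene do not single out the deleted exons, so these values check the labels only in part. All 7 microglia markers used (Cx3cr1, P2ry12 and Tmem119 among them) were found, with summed levels of 7562 to 30969 CPM.

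The heat shock genes differed widely in abundance. Per kilobase of transcript, the mean level over the 17 samples was 578 CPM for Hsp90ab1, 371 for Hspa8, 159.8 for Dnajb1 and 95.6 for Hspa1a. It was 75.4 for Hsp90aa1, 33.1 for Hspa1b, 24.1 for Bag3, 16.7 for Dnaja1, 15.2 for Hspb1 and 6.87 for Hsph1. ABC-imKO cisplatin saline had the lowest mean CPM of the 6 groups for 8 of the 10 genes, all but Hsp90ab1 and Bag3. ABC-imKO naive had the highest mean for 6 of the 10. The low values of Hspa1b, Hspa1a, Hsp90aa1 and Hspb1 in ABC-imKO cisplatin saline samples, relative to ABC-imKO naive samples, were already known when the 10 genes were chosen. That contrast, and its difference between genotypes, is therefore given as a description for the 10 genes. No p of the 10 is printed for either, and where a number of them past a threshold is given, nothing is read from it. Other contrasts that use those 2 groups share samples with that contrast, so their p-values are not independent of the choice. Genes of other lists do have p-values printed for ABC-imKO cisplatin saline against naive samples. Those lists were also chosen with earlier results of these data known.

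**Figure D1:**
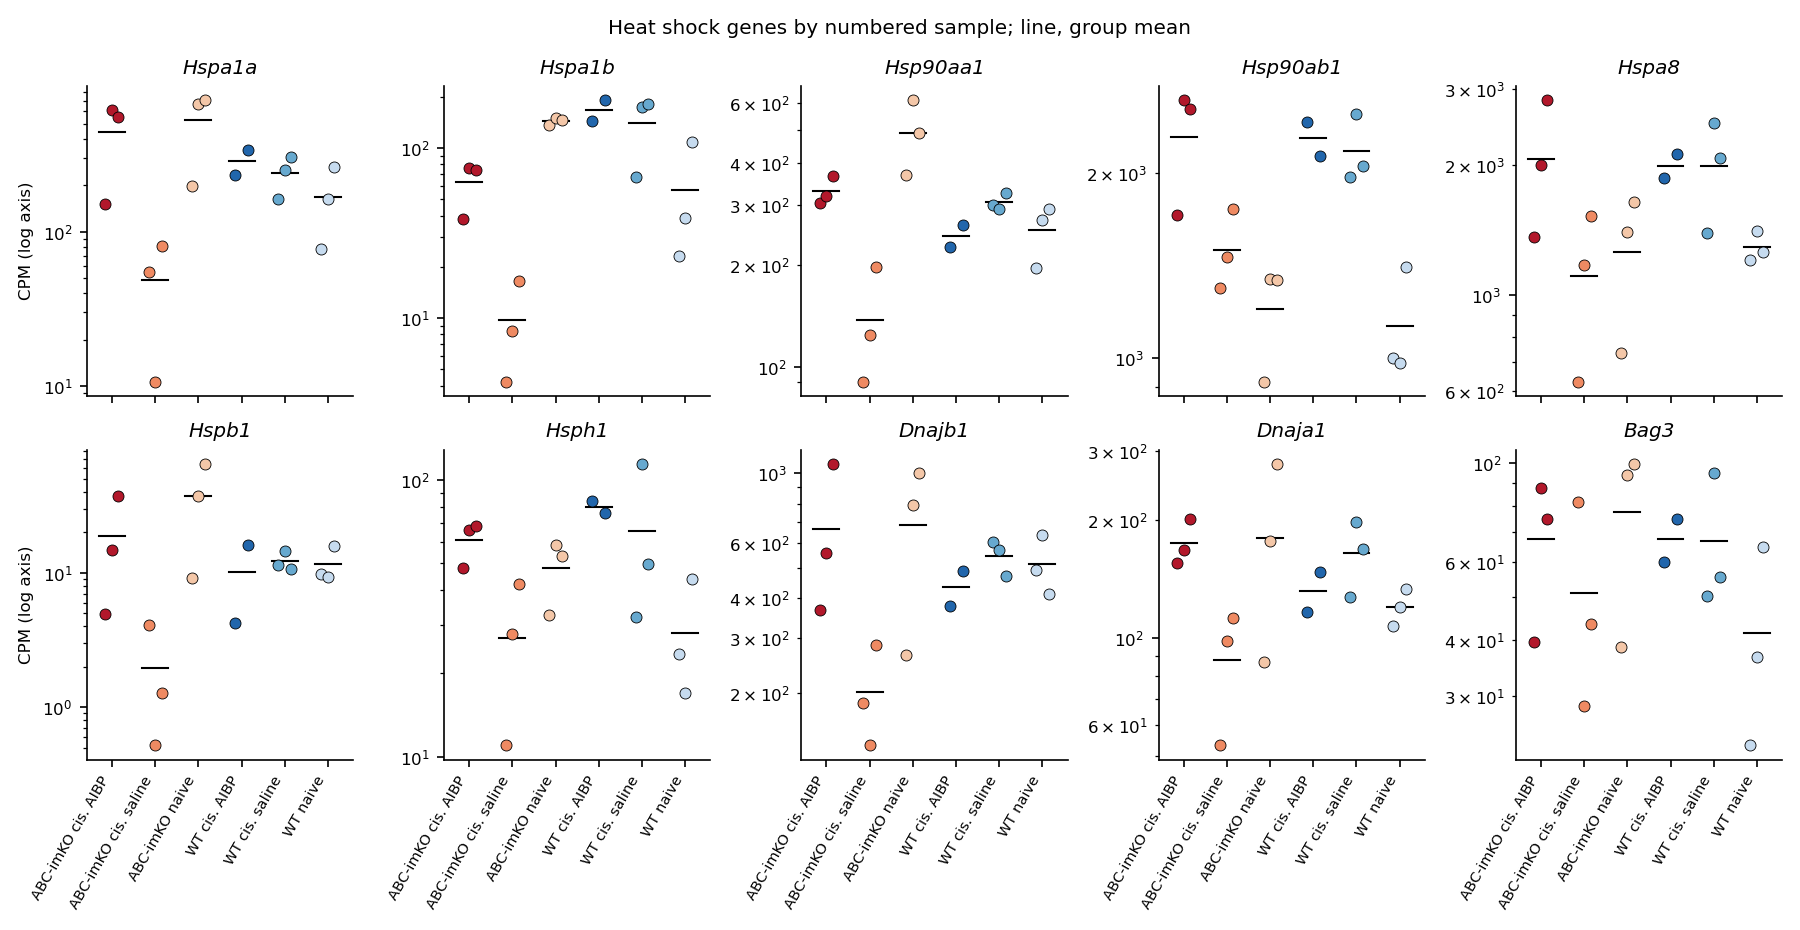
Level of each heat shock gene in CPM (log axis) in the 17 numbered samples, 1 point a sample, with the mean of each group as a line. The 3 ABC-imKO cisplatin saline samples lie below all samples of the other groups for Hspa1b and, by a narrow margin, Hspb1, whereas for Hsp90ab1 the naive groups are lowest.

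Hspa1a and Hspa1b are neighbouring, nearly identical genes on chromosome 17 (GRCm38, chr17:34969190-34972156 and chr17:34956436-34959238, both on the minus strand). Hspa1b had 38.3, 75.9 and 74.6 CPM in ABC-imKO cisplatin AIBP samples, 4.22, 8.33 and 16.5 CPM in ABC-imKO cisplatin saline samples and 137, 149.6 and 146 CPM in ABC-imKO naive samples. It had 144 and 191 CPM in WT cisplatin AIBP samples, 67.4, 175 and 180.1 CPM in WT cisplatin saline samples and 23.2, 38.6 and 109 CPM in WT naive samples. The ABC-imKO naive samples were alike, the ABC-imKO cisplatin saline samples were below every other sample, and the ABC-imKO cisplatin AIBP samples lay between them. Hspa1a had 150.5, 609.9 and 555 CPM in ABC-imKO cisplatin AIBP samples, 55.2, 10.7 and 80.9 CPM in ABC-imKO cisplatin saline samples and 196, 665 and 709 CPM in ABC-imKO naive samples. It had 232 and 338 CPM in WT cisplatin AIBP samples, 164, 251 and 304 CPM in WT cisplatin saline samples and 77, 163 and 262 CPM in WT naive samples. Its ABC-imKO cisplatin saline samples lay below all samples of 4 groups and overlapped WT naive, and its ABC-imKO cisplatin AIBP samples overlapped the naive ones. Reads of the pair are hard to assign: 58.8% of the 50-base windows of the Hspa1a transcripts also occur in Hspa1b, and 62.3% of those of Hspa1b occur in Hspa1a. The ratio of Hspa1a to Hspa1b CPM ran from 1.29 to 13.1 over samples, both extremes in ABC-imKO cisplatin saline, and how shared reads were counted is not given in the sources used here. Summed, the pair had 189, 686 and 629 CPM in ABC-imKO cisplatin AIBP, 59.4, 19.1 and 97.4 CPM in ABC-imKO cisplatin saline and 333, 815 and 855 CPM in ABC-imKO naive samples, against 376 and 529 CPM in WT cisplatin AIBP, 231, 426 and 484 CPM in WT cisplatin saline samples, and 100.3, 201 and 371 CPM in WT naive samples. In the sum, every ABC-imKO cisplatin saline sample was below every other sample.

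Promoter stretches, with heat shock element letters in capitals, are shown for Hspa1a, Hspa1b and Hspb1, which had the lowest levels in ABC-imKO cisplatin saline relative to naive samples, and for Dnaja1 and Hsph1, whose differences were smaller. RefSeq promoter windows (GRCm38.p6, 250 bases before to 50 after a start) matched 7 of the 10 genes, without Hspa8, Hsp90aa1 and Hsp90ab1. A pair of inverted repeats (GAANNTTC or TTCNNGAA, each its own reverse complement) was in windows of 6 of these 7 genes, Dnajb1 being the other one, and in windows of 17% of all 27025 genes with a window. A row of 3 repeats (GAANNTTCNNGAA or TTCNNGAANNTTC, each the reverse complement of the other, and each holding both pairs) was in 1 of the 7, Hsph1, and in windows of 0.662% of all genes. Hspa1a and Hspa1b hold the same element 104 bases before their starts, and 247 of the 250 bases before the start (98.8%) are the same in both, so the printed stretch (chr17:34972223-34972290 and chr17:34959305-34959372, minus strand) stands for both. Hspb1 (chr5:135887772-135887859, plus strand) has elements 117 and 97 bases before its start, and Dnaja1 (chr4:40722314-40722381, plus strand) has 1 at 124 bases before. The Hsph1 row of 3 repeats begins at base 37 downstream of 1 annotated start (the start being base 1). It lies within the printed stretch (chr5:149636287-149636308, minus strand). The Bag3 pair of repeats also lies downstream of its start, at base 43.
Hspa1a and Hspa1b: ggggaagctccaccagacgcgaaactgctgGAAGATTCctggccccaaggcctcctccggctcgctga
Hspb1: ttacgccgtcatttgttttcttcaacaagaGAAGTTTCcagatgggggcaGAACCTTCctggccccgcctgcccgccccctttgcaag
Dnaja1: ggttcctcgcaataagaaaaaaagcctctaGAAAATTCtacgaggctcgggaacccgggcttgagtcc
Hsph1: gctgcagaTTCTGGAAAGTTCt
A match is a description of these letters and says nothing of binding in these cells.

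The inducible and the constitutive HSP90 gene had unlike patterns. Hsp90aa1 (chr12:110690605-110702728, minus strand) had 306, 319 and 367 CPM in ABC-imKO cisplatin AIBP samples, 90.5, 124 and 197 CPM in ABC-imKO cisplatin saline samples and 368, 613 and 489 CPM in ABC-imKO naive samples. It had 225 and 263 CPM in WT cisplatin AIBP samples, 301, 292 and 326 CPM in WT cisplatin saline samples and 195, 272 and 292 CPM in WT naive samples. The 3 ABC-imKO groups did not overlap one another, with naive highest and cisplatin saline lowest. Hsp90ab1 (chr17:45567775-45573271, minus strand) had 1709, 2628 and 2541 CPM in ABC-imKO cisplatin AIBP samples, 1299, 1460.3 and 1748 CPM in ABC-imKO cisplatin saline samples and 917, 1344 and 1342 CPM in ABC-imKO naive samples. It had 2424 and 2131 CPM in WT cisplatin AIBP samples, 1970.0, 2492 and 2054 CPM in WT cisplatin saline samples and 999.5, 982 and 1409.8 CPM in WT naive samples. Both WT cisplatin groups and the ABC-imKO cisplatin AIBP group lay above both naive groups, and the ABC-imKO cisplatin saline group overlapped both naive groups and ABC-imKO cisplatin AIBP. In 47.5% of its 50-base windows Hsp90aa1 shares sequence with other annotated transcripts, mainly the gene model Gm12346, which held 0.626% as many counts.

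Hspb1 was the gene with the fewest counts. It had 4.92, 14.8 and 37.1 CPM in ABC-imKO cisplatin AIBP samples, 4.09, 0.518 and 1.28 CPM in ABC-imKO cisplatin saline samples and 9.1, 37.3 and 64.6 CPM in ABC-imKO naive samples. In WT it had 4.22 and 16.1 CPM in cisplatin AIBP, 11.5, 14.5 and 10.6 CPM in cisplatin saline and 9.76, 9.35 and 16 CPM in naive samples. Its ABC-imKO cisplatin saline samples were below every other sample, by a narrow margin (4.09 CPM in sample 4 against 4.22 CPM in WT cisplatin AIBP sample 7). The 8 WT samples lay within 4.22 to 16.1 CPM. Hspb1 shares 50.1% of its windows with other transcripts, mainly the pseudogene Hsp25-ps1, which held 0.631% as many counts.

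The J-domain gene Dnajb1 had 368, 555 and 1068 CPM in ABC-imKO cisplatin AIBP samples, 186, 137 and 284 CPM in ABC-imKO cisplatin saline samples and 264, 789 and 1001 CPM in ABC-imKO naive samples. In WT it had 379 and 489 CPM in cisplatin AIBP, 602, 568 and 471 CPM in cisplatin saline and 491, 637 and 413 CPM in naive samples. The ABC-imKO cisplatin saline samples were below all WT samples and below all ABC-imKO samples but naive sample 1. The other J-domain gene, Dnaja1, averaged 175 ± 23.8 CPM in ABC-imKO cisplatin AIBP, 88.1 ± 31 CPM in ABC-imKO cisplatin saline and 180.4 ± 95.6 CPM in ABC-imKO naive samples (SD, n = 3 each). In WT it averaged 132 ± 21.6 CPM in cisplatin AIBP (SD, n = 2), 165 ± 35.6 CPM in cisplatin saline and 120.1 ± 13 CPM in naive samples (SD, n = 3 each). Its group means spanned 1.04 on the scale of log2 of CPM plus 1, less than the 1.63 of Dnajb1 and the 3.50 of Hspb1.

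The constitutive HSP70 gene Hspa8 averaged 2069 ± 736 CPM in ABC-imKO cisplatin AIBP, 1109.8 ± 449 CPM in ABC-imKO cisplatin saline and 1259 ± 471 CPM in ABC-imKO naive samples (SD, n = 3 each). In WT it averaged 1994 ± 184 CPM in cisplatin AIBP (SD, n = 2), 1991 ± 559 CPM in cisplatin saline and 1293 ± 107 CPM in naive samples (SD, n = 3 each). Hspa8 groups next to each other in order of mean overlapped throughout, as did those of Hspa1a, Dnaja1, Hsph1 and Bag3. The exchange factor Hsph1 averaged 60.8 ± 10.9 CPM in ABC-imKO cisplatin AIBP, 26.9 ± 15.5 CPM in ABC-imKO cisplatin saline and 48.1 ± 13.7 CPM in ABC-imKO naive samples. In the WT groups Hsph1 averaged 80.2 ± 5.8 CPM with cisplatin AIBP, 65.5 ± 43.3 CPM with cisplatin saline and 28.1 ± 14 CPM in naive samples (SD, n as for Hspa8). Its lowest group mean, in ABC-imKO cisplatin saline, was close to that of WT naive. Bag3 averaged 67.4 ± 25 CPM in ABC-imKO cisplatin AIBP, 51.1 ± 27.4 CPM in ABC-imKO cisplatin saline and 77.4 ± 33.6 CPM in ABC-imKO naive samples. In the WT groups Bag3 averaged 67.4 ± 10.6 CPM with cisplatin AIBP, 66.8 ± 24.5 CPM with cisplatin saline and 41.5 ± 21.1 CPM in naive samples (SD, n as for Hspa8). Bag3 had its lowest mean in WT naive samples.

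In ABC-imKO microglia, cisplatin saline samples had lower levels than naive samples for 9 of the 10 heat shock genes. The difference (log2 fold change, edgeR) was -4.24 ± 0.93 for Hspb1, -3.89 ± 0.62 for Hspa1b and -3.42 ± 0.74 for Hspa1a (± SE). It was -1.84 ± 0.26 for Hsp90aa1, -1.76 ± 0.45 for Dnajb1 and -1.03 ± 0.35 for Dnaja1. Hsph1 (-0.83 ± 0.50), Bag3 (-0.60 ± 0.47) and Hspa8 (-0.18 ± 0.35) were closer to 0, and Hsp90ab1 (0.32 ± 0.21) was the exception in sign. The median was -1.40, against -0.04 over all 20461 genes tested. Of the 10, 5 were past the threshold used throughout (Benjamini-Hochberg adjusted p under 0.05 over all genes), as were 4.41% of all genes, and nothing is read from this count because this contrast was known when the genes were chosen. In 4 (Hspa1a, Hspa1b, Hsp90aa1 and Hspb1) every cisplatin saline sample was below every naive sample, as in 11.5% of all genes.

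In WT microglia Hsp90ab1 was the 1 heat shock gene that rose with the same treatment. It averaged 2172 ± 280.3 CPM in WT cisplatin saline and 1130.3 ± 242 CPM in WT naive samples (SD, n = 3 each), a log2 fold change of 0.94 ± 0.21 (edgeR adjusted p = 0.027). The other 9 did not pass, although all 10 had positive fold changes with a median of 0.57, against -0.01 over all genes. That is 1 of 10 genes called, where 2.91% of all genes were called. Hspa1b was at 1.31 ± 0.56 (adjusted p = 0.247, edgeR) and Hsph1 at 1.22 ± 0.51 (adjusted p = 0.238, edgeR), while Hspb1 was at 0.06 ± 0.82 and Dnajb1 at 0.09 ± 0.43. Every WT cisplatin saline sample was above every WT naive sample for 2 genes, Hsp90ab1 and, by a narrow margin, Hsp90aa1, where 12% of all genes were. The Hsp90ab1 call was lost without WT cisplatin saline sample 5 or 6 or WT naive sample 1 or 2, with edgeR adjusted p between 0.0687 and 0.13 and log2 fold changes between 0.83 and 0.98.

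**Figure D2:**
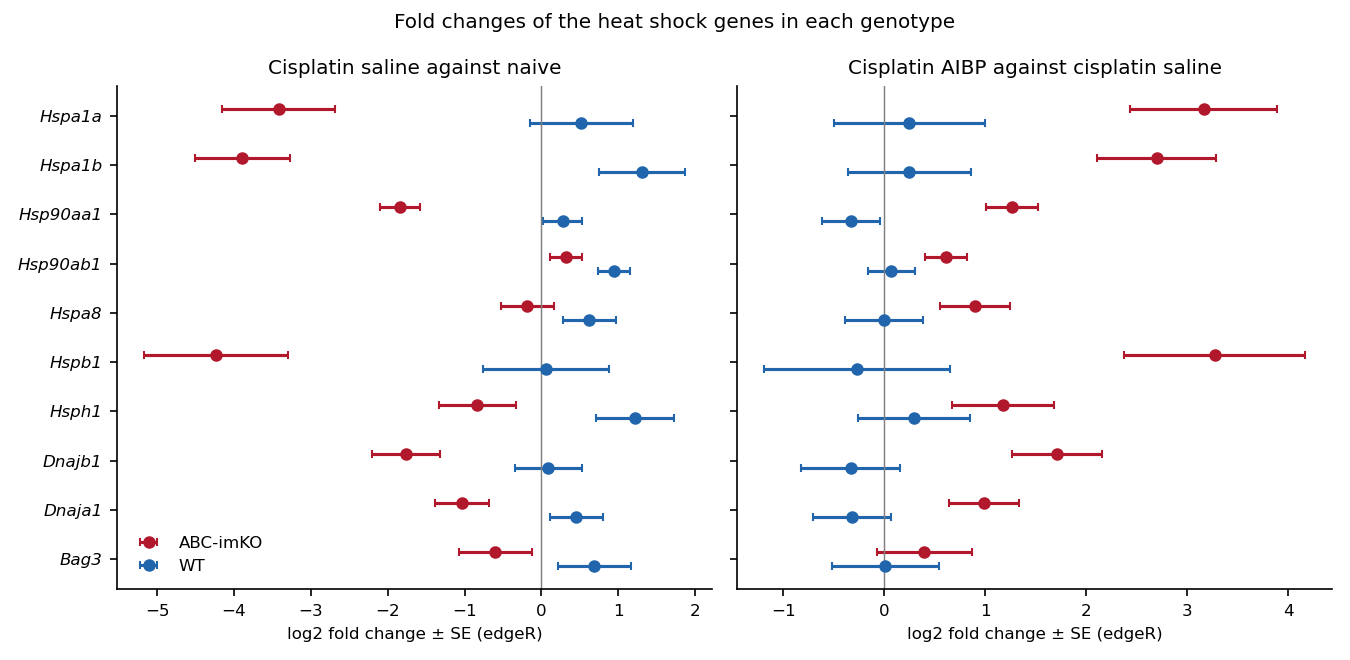
Log2 fold change ± SE (edgeR) of the 10 heat shock genes, for cisplatin saline against naive (left) and cisplatin AIBP against cisplatin saline (right), with ABC-imKO in red and WT in blue. In ABC-imKO 9 of 10 fold changes are below 0 on the left and all 10 are above 0 on the right; in WT all 10 are above 0 on the left and 6 of 10 on the right.

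The genotype difference in the cisplatin effect (ABC-imKO minus WT) was negative for all 10 genes, with a median of -1.95. It was -5.20 ± 0.82 for Hspa1b, -4.30 ± 1.21 for Hspb1, -3.94 ± 0.98 for Hspa1a and -2.11 ± 0.36 for Hsp90aa1. It was smallest for Hsp90ab1 (-0.62 ± 0.29) and Hspa8 (-0.81 ± 0.49). No gene of the 20461 passed the threshold with edgeR in this contrast (0%), and DESeq2 called 4 of the 10 (0.914% of all genes). The genotype difference was known for the leading genes when they were chosen, and nothing is read from these counts.

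AIBP given to ABC-imKO mice after cisplatin went with higher levels of all 10 heat shock genes, but none passed the threshold with edgeR. The log2 fold change of cisplatin AIBP against cisplatin saline was 3.27 ± 0.89 for Hspb1 (adjusted p = 0.706, edgeR), 3.16 ± 0.73 for Hspa1a (adjusted p = 0.536) and 2.70 ± 0.58 for Hspa1b (adjusted p = 0.497). It was 1.72 ± 0.45 for Dnajb1, 1.27 ± 0.26 for Hsp90aa1 (adjusted p = 0.384), 1.17 ± 0.50 for Hsph1 and 0.99 ± 0.35 for Dnaja1. Hspa8 (0.90 ± 0.35), Hsp90ab1 (0.61 ± 0.21) and Bag3 (0.40 ± 0.47) were lowest. The median was 1.22, against 0.00 over all genes. In 7 genes, all but Hsp90ab1, Hspa8 and Bag3, every AIBP sample was above every saline sample, where 4.17% of all genes were. Of the 10, 0 were called by edgeR (0.00977% of all genes), 9 had an unadjusted p under 0.05 (6.62% of all genes), limma-voom called 0 and DESeq2 called 5 (0.904% of all genes): Hspa1a, Hspa1b, Hsp90aa1, Hspb1 and Dnajb1. Without ABC-imKO cisplatin saline sample 6, edgeR called 1. The ABC-imKO cisplatin saline samples are those whose low values were known, so a high value relative to them is not independent of the choice.

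Relative to naive samples, ABC-imKO cisplatin AIBP samples had a higher level of Hsp90ab1 (0.93 ± 0.21, edgeR adjusted p = 0.0293), the 1 gene of 10 that passed, where 2.68% of all genes did. Every AIBP sample was above every naive sample for this gene, as for 10.1% of all genes. This call was lost without ABC-imKO cisplatin AIBP sample 8 or 9 or ABC-imKO naive sample 1 or 2, with edgeR adjusted p between 0.0775 and 0.143. Every AIBP sample was below every naive sample for Hspa1b (-1.19 ± 0.56, edgeR adjusted p = 0.298) and Hsp90aa1 (-0.57 ± 0.25, edgeR adjusted p = 0.279), where 9.77% of all genes were, and neither passed. Dnajb1 was at -0.05 ± 0.43 and Dnaja1 at -0.04 ± 0.34.

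In WT mice, cisplatin AIBP and cisplatin saline samples were not separated for the heat shock genes. Fold changes (log2, AIBP against saline) ran from -0.33 to 0.29 with a median of 0.01, 6 positive and 4 negative. Of the 10, 0 were called by edgeR (0% of all genes), 0 had an unadjusted p under 0.05 (3.71% of all genes), and DESeq2 and limma-voom called 0. With 2 AIBP samples the 95% intervals were wide: -0.44 to 0.58 for Hsp90ab1, -1.09 to 1.59 for Hspa1b, -1.39 to 1.89 for Hspa1a and -2.29 to 1.76 for Hspb1. Only for Hsp90aa1 were the groups apart, with every AIBP sample below every saline sample (-0.33 ± 0.28, edgeR adjusted p = 1), where 9.14% of all genes were. Relative to WT naive samples, WT cisplatin AIBP samples had a higher level of Hsp90ab1 (1.01 ± 0.23, edgeR adjusted p = 0.048), where 1.25% of all genes were called. That call was lost without either AIBP sample or without WT naive sample 1 or 2 (edgeR adjusted p 0.157 to 0.363). Every AIBP sample was above every naive sample for Hspa1b, Hsp90ab1, Hspa8 and Hsph1, where 17% of all genes were.

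The genotype difference in the AIBP effect (ABC-imKO minus WT) was positive for all 10 genes, with a median of 1.45, against 0.07 over all genes, and none passed with edgeR. It was 3.54 ± 1.30 for Hspb1, 2.91 ± 1.05 for Hspa1a, 2.45 ± 0.85 for Hspa1b, 2.05 ± 0.67 for Dnajb1 and 1.60 ± 0.38 for Hsp90aa1 (edgeR adjusted p = 0.774 for each). Of the 10, 0 were called by edgeR (0% of all genes), 6 had an unadjusted p under 0.05 (6.28% of all genes), limma-voom called 0 and DESeq2 called 1, Hsp90aa1 (0.665% of all genes). This difference also uses the ABC-imKO cisplatin saline samples whose low values were known. Its values are not independent of the choice, and nothing is read from these counts.

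Between genotypes after cisplatin and saline, Hspa1b was lower in ABC-imKO than in WT microglia, and the other 9 heat shock genes did not pass with edgeR. All 10 log2 fold changes were negative with a median of -1.22, against -0.01 over all genes, and that of Hspa1b passed (-3.86 ± 0.62, adjusted p = 0.0433), where 0.044% of all genes did. Hspa1b averaged 9.7 ± 6.28 CPM in ABC-imKO cisplatin saline and 141 ± 63.7 CPM in WT cisplatin saline samples (SD, n = 3 each), a level 14.5-fold lower. The Hspa1b call was lost without ABC-imKO cisplatin saline sample 4 or 5 or WT cisplatin saline sample 5 or 6 (edgeR adjusted p 0.0729 to 0.296), with log2 fold changes between -3.76 and -3.51. Hspb1 (-2.64 ± 0.87, adjusted p = 0.424, edgeR), Hspa1a (-2.29 ± 0.70, adjusted p = 0.386) and Hsp90aa1 (-1.16 ± 0.26, adjusted p = 0.175) did not pass. In 7 genes, all but Hspa8, Hsph1 and Bag3, every ABC-imKO sample was below every WT sample, where 6.4% of all genes were. DESeq2 called 4 (1.96% of all genes): Hspa1b, Hsp90aa1, Hspb1 and Dnajb1. The low values of the ABC-imKO cisplatin saline samples were known when the genes were chosen. The p, the calls and the separations in this contrast are therefore not independent of the choice, and nothing is read from their number.

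In naive mice 9 of the 10 fold changes were positive (ABC-imKO against WT, median 0.84) and none passed with edgeR (0 of 10, 0.00489% of all genes), while 3 had an unadjusted p under 0.05 (5.96% of all genes), DESeq2 called 1, Hsp90aa1 (0.831% of all genes), and limma-voom called 0. Every ABC-imKO naive sample was above every WT naive sample for Hspa1b (1.34 ± 0.56) and Hsp90aa1 (0.95 ± 0.25), where 5.49% of all genes were. After cisplatin and AIBP, fold changes between genotypes ran from -1.41 ± 0.60 for Hspa1b to 0.90 ± 0.94 for Hspb1 with a median of 0.23. Of the 10, 0 were called by edgeR (0% of all genes), 1 had an unadjusted p under 0.05 (6.35% of all genes), and DESeq2 and limma-voom called 0. Every ABC-imKO sample was above every WT sample for Hsp90aa1 and Dnaja1 (10.8% of all genes) and below for Hspa1b and Hsph1 (11.4% of all genes).

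Within groups, the heat shock genes tended to be high or low in the same samples. ABC-imKO naive sample 1 and ABC-imKO cisplatin AIBP sample 7 were the lowest of their groups for all 10 heat shock genes. ABC-imKO cisplatin saline sample 6 and WT naive sample 3 were the highest of theirs for 8 of 10. The technical libraries of a sample also differed. The SD of log2 of CPM plus 1 between libraries of a sample was 0.21 for Hsp90ab1, 0.46 for Hspa1a, 0.49 for Hspa1b and 0.77 for Hspb1. Between samples within a group, after summing their libraries, it was 0.27, 1.01, 0.74 and 1.00 for these 4 genes. No library was at 0 for any of the 10 genes. Hspa1b was at 0.878 to 23.4 CPM in the 9 ABC-imKO cisplatin saline libraries, against 120.0 to 187 CPM in the 9 ABC-imKO naive libraries and 33 to 229 CPM in the 9 WT cisplatin saline libraries, with no overlap. The 9 WT naive libraries, at 19.7 to 112 CPM, did overlap the ABC-imKO cisplatin saline libraries. Hspa1a libraries of ABC-imKO cisplatin saline (9.93 to 105 CPM) were below those of ABC-imKO naive (176 to 1076 CPM). They overlapped those of WT cisplatin saline (91.0 to 355 CPM). Between ABC-imKO cisplatin saline and naive, libraries overlapped for Hspb1 (0.0365 to 7.44 against 3.05 to 67.7 CPM) and Hsp90aa1 (52.9 to 252 against 225 to 972 CPM).

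**Figure D3:**
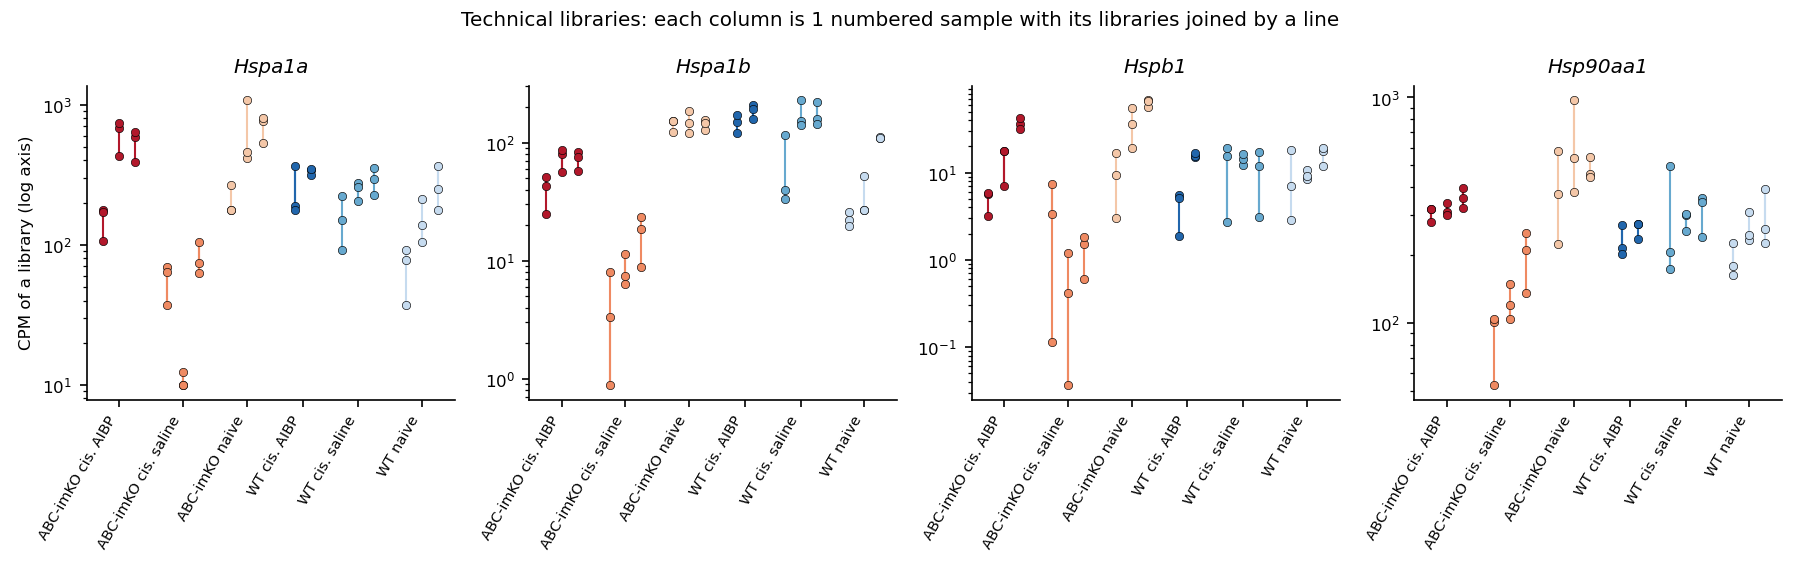
CPM (log axis) of Hspa1a, Hspa1b, Hspb1 and Hsp90aa1 in the 51 technical libraries, with each numbered sample as a column and its 3 libraries joined by a line. For Hspa1b all 9 ABC-imKO cisplatin saline libraries, at 0.878 to 23.4 CPM, are below all 9 ABC-imKO naive libraries, at 120.0 to 187 CPM. For Hspb1 and Hsp90aa1 the libraries of these groups overlap.

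Other chaperone families are given beside the heat shock genes, and the lists were not tested against each other. The lists were chosen with earlier results of these data known. For cisplatin saline against naive samples, edgeR called 4.41% of all genes in ABC-imKO and 2.91% in WT, in either direction. For cisplatin AIBP against naive samples it called 2.68% in ABC-imKO and 1.25% in WT. Of 14 subunits of the TRiC chaperonin and prefoldin, which fold actin and tubulin, 3 rose in ABC-imKO cisplatin saline against naive samples, Cct3 (1.04 ± 0.23, edgeR adjusted p = 0.019) and Cct5 (1.11 ± 0.29, adjusted p = 0.039) among them. In WT cisplatin saline against naive samples 5 of the 14 rose, led by Cct5 (1.44 ± 0.29, edgeR adjusted p = 0.0157). Of 16 chaperones of the endoplasmic reticulum, 1 rose in ABC-imKO cisplatin saline against naive samples, the disulfide isomerase P4hb (1.02 ± 0.23, edgeR adjusted p = 0.0203). In WT, 10 of the 16 rose, among them Sdf2l1 (1.38 ± 0.22), Calr (1.21 ± 0.19), Manf (1.60 ± 0.29) and Hsp90b1 (0.83 ± 0.15). For cisplatin AIBP against naive samples, 6 of 14 TRiC and prefoldin genes rose in ABC-imKO and 4 in WT, and 5 of 16 endoplasmic reticulum genes rose in ABC-imKO and 8 in WT. None of either list fell in these 4 contrasts. In WT cisplatin saline against naive samples the median log2 fold change was 0.88 for TRiC and prefoldin and 0.93 for the endoplasmic reticulum list, beside 0.57 for the 10 heat shock genes, so all 3 medians were above 0. Whether these counts differ between genotypes is not settled by the genotype difference in the cisplatin effect. None of all 20461 genes passed there with edgeR, so that no gene of either list passed says nothing of the lists. The median difference there was -0.13 for TRiC and prefoldin and -0.49 for the endoplasmic reticulum list, beside the -1.95 of the 10 heat shock genes, some of which were chosen for their low values there.

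Of 30 tested genes among 32 other cytosolic chaperones and co-chaperones, 1 rose and 2 fell in ABC-imKO cisplatin saline against naive samples. In this contrast 4.41% of all genes were called. The riser was Ptges3, the HSP90 co-chaperone p23 (0.95 ± 0.24, edgeR adjusted p = 0.0364). Those that fell were the co-chaperones Dnajc7 (-0.91 ± 0.19, edgeR adjusted p = 0.015) and Dnajb2 (-1.60 ± 0.41, edgeR adjusted p = 0.0403). In WT cisplatin saline against naive samples none of the 30 passed (edgeR). Mitochondrial chaperones had 1 of 9 higher in WT cisplatin saline against naive, where 2.91% of all genes were called. It was the chaperonin subunit Hspe1 (1.31 ± 0.29, edgeR adjusted p = 0.0244), and 0 were higher in ABC-imKO. Of 11 genes of ubiquitin and aggregate handling, Vcp rose in ABC-imKO cisplatin AIBP against naive samples (0.73 ± 0.14, edgeR adjusted p = 0.0139). In that contrast 2.68% of all genes were called. None of 5 heat shock factors and regulators passed in any contrast (edgeR). Hsf1, the factor that drives the heat shock genes, averaged 83.3 ± 29.3 CPM in ABC-imKO cisplatin AIBP, 70.7 ± 18.6 CPM in ABC-imKO cisplatin saline and 99.6 ± 24.8 CPM in ABC-imKO naive samples (SD, n = 3 each). In WT, Hsf1 averaged 98.5 ± 6.56 CPM in cisplatin AIBP (SD, n = 2), 88.3 ± 2.76 CPM in cisplatin saline and 127 ± 25.1 CPM in naive samples (SD, n = 3 each), so ABC-imKO cisplatin saline was lowest and overlapped ABC-imKO naive.

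Immediate early genes, such as Fosb and Ier5, were listed together with genes of cell dissociation, and the whole list is called immediate early genes here. The listed genes moved with the heat shock genes in some groups and not in others. Their mean log2 CPM over 21 genes, relative to WT naive samples, was -1.59, -2.54 and -0.50 in ABC-imKO cisplatin saline samples 4, 5 and 6, where the 10 heat shock genes were at -1.13, -1.39 and -0.50. In ABC-imKO cisplatin AIBP samples 7, 8 and 9 immediate early genes were at -0.21, -0.22 and 0.47 and heat shock genes at 0.04, 0.85 and 1.14. In WT cisplatin saline samples 4, 5 and 6 immediate early genes were at 0.63, -1.28 and -0.56 and heat shock genes at 0.30, 0.97 and 0.67. In WT cisplatin AIBP samples 7 and 9 immediate early genes were at -1.78 and -1.60, as low as in ABC-imKO cisplatin saline sample 4, while heat shock genes were at 0.43 and 0.82. In ABC-imKO naive samples 1, 2 and 3 immediate early genes were at -1.45, 0.21 and 0.60 and heat shock genes at 0.01, 1.09 and 1.26. Sample 1 was thus the lowest of its group in both lists, although its heat shock value was close to the WT naive mean. Of the 21 genes, 3 fell in ABC-imKO cisplatin saline against naive samples, where 4.41% of all genes were called. They were Rhob (-1.33 ± 0.31), Ier5 (-1.64 ± 0.39) and Fosb (-3.14 ± 0.76), with edgeR adjusted p between 0.0235 and 0.0286. For cisplatin AIBP against saline all 21 fold changes were positive in ABC-imKO (median 1.39) and all 21 negative in WT (median -1.47), and none passed with edgeR. The part of cell handling in the heat shock values was not tested.

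**Figure D4:**
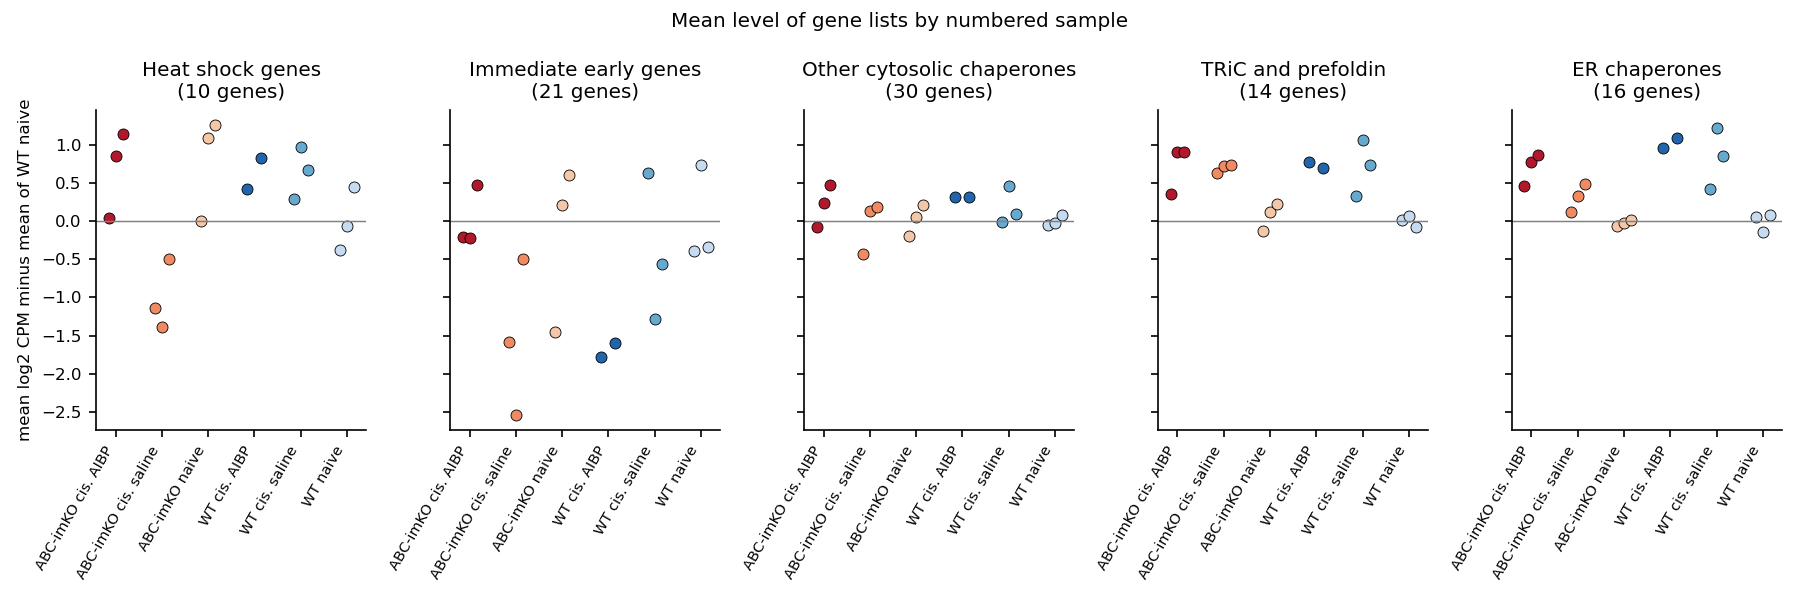
Mean log2 CPM of each gene list minus its mean over WT naive samples, 1 point for each of the 17 numbered samples. Heat shock genes are lowest in the 3 ABC-imKO cisplatin saline samples, at -1.39 to -0.50. Immediate early genes, a list that also holds dissociation genes, are lowest in ABC-imKO cisplatin saline 4 and 5, both WT cisplatin AIBP samples, ABC-imKO naive 1 and WT cisplatin saline 5. TRiC, prefoldin and endoplasmic reticulum chaperones are above 0 in all cisplatin samples.

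Markers of other cells also moved with treatment. The sum of 7 monocyte markers (Ccr2, Ly6c2, Chil3, Plac8, Vcan, S100a4 and Fn1) was 270.4 to 786 CPM in ABC-imKO cisplatin AIBP, 762 to 1207 CPM in ABC-imKO cisplatin saline and 4.16 to 20.1 CPM in ABC-imKO naive samples. In WT it was 185 to 272 CPM in cisplatin AIBP, 238 to 1045 CPM in cisplatin saline and 3.82 to 61.7 CPM in naive samples. All 7 were tested, none was at 0 throughout a group, and Fn1 rose in ABC-imKO cisplatin saline against naive samples (6.48 ± 1.43, edgeR adjusted p = 0.0184). Microglia markers summed to 11220 to 16017 CPM in ABC-imKO cisplatin AIBP, 7562 to 9402 CPM in ABC-imKO cisplatin saline and 19157 to 23029 CPM in ABC-imKO naive samples, against 18417 to 20755 CPM in WT cisplatin AIBP, 12816 to 17243 CPM in WT cisplatin saline and 26214 to 30969 CPM in WT naive samples. Fn1, which encodes fibronectin, made up most of the monocyte sum, with 639, 1088 and 723 CPM in ABC-imKO cisplatin saline samples 4, 5 and 6. The monocyte chemokine receptor Ccr2 had 0.227, 4.88 and 6.74 CPM in these ABC-imKO samples, against 0.324, 95.3 and 62.8 CPM in WT cisplatin saline samples 4, 5 and 6. In the ABC-imKO samples Ly6c2 and Plac8 were also below 7 CPM, but Chil3 was at 116, 106 and 76.9 CPM. Chil3 had 0.103, 4.89 and 0.225 CPM in ABC-imKO naive samples, and 0.114, 49.4 and 44.7 CPM in WT cisplatin saline samples. Markers of border macrophages (6, such as Mrc1) summed to 21.6 to 35.6 CPM in ABC-imKO cisplatin saline and 5.96 to 8.94 CPM in ABC-imKO naive samples. In WT these sums were 0.59 to 134 CPM and 0.142 to 4.52 CPM. So the group with the lowest heat shock values also had the lowest microglia sum and a high monocyte sum, mainly from Fn1 and then Chil3. The part of either in the result was not tested. Monocyte sums were 238, 1045 and 697 CPM in WT cisplatin saline samples 4, 5 and 6, with Hspa1b at 67.4, 175 and 180.1 CPM. For ABC-imKO cisplatin AIBP samples 7, 8 and 9 they were 270.4, 786 and 325 CPM, with Hspa1b at 38.3, 75.9 and 74.6 CPM. ABC-imKO cisplatin saline samples had monocyte sums of 762 to 1207 CPM with Hspa1b at 4.22 to 16.5 CPM. WT cisplatin AIBP samples had sums of 185 to 272 CPM with Hspa1b at 144 and 191 CPM. How the sums relate to the heat shock genes was not tested. Neutrophil, T and NK cell markers stayed at or below 22.9 CPM in sum, with 5 or 6 of the 8 neutrophil markers at 0 throughout each group. Astrocyte markers summed to 99.6 to 143 CPM in ABC-imKO cisplatin saline and 196 to 237 CPM in ABC-imKO naive samples. In WT these sums were 77.6 to 129 CPM and 142 to 199 CPM. Oligodendrocyte sums were 132 to 187 CPM and 229 to 259 CPM in these ABC-imKO groups, and 140 to 410 CPM and 260 to 464 CPM in WT. In bulk RNA, fewer cells with a transcript and less of it per cell cannot be told apart.

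Over the 17 samples, the genes outside the list whose log2 CPM most resembled the mean z score of the 10 heat shock genes were Uck1, a uridine-cytidine kinase (Pearson r = 0.83), Batf3, a transcription factor (r = 0.82), Tysnd1, a peroxisomal protease (r = 0.81), and Ckb, brain-type creatine kinase (r = 0.80), out of 8560 ranked genes whose mean level reached 10 CPM. These samples share groups and libraries with the heat shock genes, so r is a description. Ckb averaged 1033 CPM in ABC-imKO cisplatin AIBP, 733 CPM in ABC-imKO cisplatin saline and 1002 CPM in ABC-imKO naive samples, against 1322 CPM in WT cisplatin AIBP, 1209 CPM in WT cisplatin saline and 965 CPM in WT naive samples.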

How the data were processed

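Microglia were sorted from lumbar spinal cord straight into lysis buffer, polyadenylated RNA was amplified by PCR from oligo(dT) primers, and Nextera XT libraries were read as pairs, per the labels' protocols. Per the submitters' processing notes, the tools were STAR 2.6.0a, DESeq2, FastQC 0.11.17, MultiQC 1.7 and bcl2fastq, and the build was GRCm38; the counting tool and its strand setting are not given in the sources used here, so overlapping antisense reads cannot be told apart. The authors deposited raw counts (53715 genes, 102 runs) and a normalized signal table (18856 genes), which is those counts divided by 1 size factor per run. The 10 heat shock genes, and the gene lists, were chosen with earlier results of these data known. Counts of the 6 runs of a numbered sample (3 technical libraries on 2 lanes) were summed, since runs of a sample are technical, and the 17 samples were the units.

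Groups were compared on counts with edgeR 4.0.16 (R 4.3.3): TMM scaling, filterByExpr (20461 genes tested), and the two-sided quasi-likelihood F test fitted to the means of the 6 groups with all 17 samples (residual degrees of freedom 11), adjusted by Benjamini-Hochberg over all genes, with a threshold of 0.05, in 11 contrasts, 2 of them genotype differences of an effect. The script was tested on simulated counts. CPM are TMM-scaled, and log2 CPM of gene lists and for Pearson r used a prior count of 2. The SDs and the spans of group means on the log2 scale used log2 of CPM plus 1. Adding 1 narrows them for genes at low CPM, such as Hspb1. Alternatives were DESeq2 1.42.0, limma-voom (limma 3.58.1), other scalings and filters, a fit of only the groups compared, and leaving out samples or technical libraries. All 10 genes are named in each contrast, with up to 4 called genes of each list by smallest p and the genes most like the 10 by Pearson r. Positions of genes are from GENCODE M21. With 2 or 3 samples a group, an exact permutation test of 1 gene cannot reach 0.05, so none was used. One marker gene of the microglia list is not reported here, and the sums leave it out.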

Additional observations from a re-analysis of the deposited data

Results flagged for a closer look

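Hsp90aa1 separated in opposite directions in the genotypes under both treatments, while no gene passed with edgeR in either genotype difference. Its cisplatin saline against naive log2 fold change was lower in ABC-imKO than in WT by -2.11 ± 0.36 (edgeR): every ABC-imKO cisplatin saline sample was below every ABC-imKO naive sample, and every WT cisplatin saline sample was above every WT naive sample, though the lowest saline and the highest naive sample both round to 292 CPM. Such opposite separation held for 71 of the 20461 genes (0.347%), and this difference was known when Hsp90aa1 was chosen and is a description. Its AIBP against saline log2 fold change was higher in ABC-imKO than in WT by 1.60 ± 0.38 (edgeR adjusted p = 0.774), with every ABC-imKO AIBP sample above every ABC-imKO saline sample and both WT AIBP samples below every WT saline sample. That opposite separation held for 204 genes (0.997%). It uses the same ABC-imKO cisplatin saline samples, so it is not independent of the choice of Hsp90aa1 either.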

How the results depend on the processing

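Over the alternatives that were run, 1777 fold changes of single heat shock genes kept their direction and their side of the threshold, 47 lost a call, 30 gained one and 86 that were not called changed sign; no called value reversed. Counts of the 10 genes called moved as follows, with all genes called under that setting in parentheses. For ABC-imKO cisplatin saline against naive (5), which is a description, limma-voom gave 3 (1234), a fit of only the groups compared 2 (584), and leaving out 1 sample gave 2 to 6. For WT cisplatin saline against naive (1), the fit of only those groups (69) and the fit without WT cisplatin saline 5 and 6 (7) gave 0, and leaving out 1 sample 0 to 1. For AIBP against saline in ABC-imKO (0), DESeq2 gave 5 (185), no filter on low counts 2 (6), and leaving out 1 sample 0 to 1. For AIBP against naive in WT (1), limma-voom gave 0 (204), only the groups compared 2 (420), leaving out technical library 1, 2 or 3 of every sample 0 (79 to 214), and leaving out 1 sample 0 to 1. For AIBP against naive in ABC-imKO (1), only the groups compared (61) and leaving out technical library 1 (375) gave 0, and leaving out 1 sample 0 to 1. For ABC-imKO against WT, naive (0), DESeq2 gave 1 (170). After cisplatin saline (1), DESeq2 gave 4 (401) and a filter of 10 CPM in 2 samples 2 (37); limma-voom (26), only the groups compared (0), leaving out technical library 1 or 3 (7 and 3), and leaving out WT cisplatin saline 5 and 6 (1) gave 0, and leaving out 1 sample 0 to 2. For the genotype difference in the cisplatin effect (0), also a description, DESeq2 gave 4 (187), no filter 2 (6), the stricter filter 2 (4), and leaving out 1 sample 0 to 2. For that in the AIBP effect (0), DESeq2 gave 1 (136). The causes were not tested.

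The sample number as a replicate block, possible between genotypes, gave 0 genes called after cisplatin saline (Hspa1b, adjusted p = 0.0569 with edgeR) and changed no other call. After the group mean of each gene was subtracted, ABC-imKO and WT samples with the same number correlated by -0.14 to 0.14 (8 pairs). Those with other numbers correlated by -0.17 to 0.14 (16 pairs). With so few samples a group, these values cannot decide whether the numbers pair the samples. Where a sample left out leaves WT cisplatin AIBP with 1, that sample is assumed to vary like the other groups. Hspb1, with as few as 42 counts in a sample, is the gene that depth limits most. Counts cover amplified fragments without molecular identifiers.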
